A study of Mus musculus with 6 samples.

Results

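The 35 genes described here encode the glutathione, glutaredoxin, thioredoxin and peroxiredoxin systems, the superoxide and peroxide enzymes, the regulator NRF2 with its partners and targets, and the ferritin chains that store iron. They were chosen by gene symbol, and all 35 were found among the 49492 rows of the count table. All 35 also passed the low-count filter that left 15186 genes for testing. The libraries were RNA-seq of splenic CD8 T cells, described as naive at isolation, cultured for 24 hours on plate-bound anti-CD3 (1 µg/ml) with soluble anti-CD28 (1 µg/ml). KO cells came from NIK-CD4Cre-OT-I mice and WT cells from wild type-OT-I mice, with 3 libraries per genotype, numbered 4 to 6 for KO and 1 to 3 for WT. All mice were of the C57/BL6 background, 6 to 8 weeks old, and all carried OT-I, a transgenic T cell receptor specific for an ovalbumin peptide. NIK, encoded by Map3k14, is the kinase of the noncanonical NF-kB pathway, and a Cd4-driven Cre acts while T cells develop in the thymus, so that CD8 T cells also descend from cells in which it was active. Whether the 3 libraries of a genotype are 3 separate mice is not stated. Each genotype had male and female libraries by their counts, and so came from more than 1 mouse. The p-values measure the spread between libraries, which may still be technical in part.

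A T cell that leaves rest to grow and divide raises its respiration and with it the output of superoxide and hydrogen peroxide. Glutathione, made from glutamate, cysteine and glycine, and the small protein thioredoxin are the main carriers of reducing power against these oxidants, and both are recharged with electrons from NADPH. Peroxiredoxins and glutathione peroxidases spend that power on peroxides, and NRF2, which KEAP1 marks for degradation until oxidants or electrophiles modify KEAP1, switches on many of the genes involved.

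The libraries held between 41311346 and 47851445 counts. Map3k14 had 50.7, 64.5 and 54.7 CPM (normalised counts scaled to a common library total) in the KO libraries and 53.6, 65.5 and 65.3 CPM in the WT libraries, a log2 fold of -0.12 (SE 0.11, adjusted p = 0.81 by edgeR's quasi-likelihood test). Its level did not separate the groups. A gene-level count covers the whole gene, including any exons a conditional allele leaves in place, so this gene does not check the labels, and every direction below is between libraries as labelled. The summed level of 8 T cell genes (Cd3 chains, Cd8a, Cd8b1, receptor constant genes and Lck) was 2402 to 2539 CPM in KO and 2386 to 2646 CPM in WT. Of these 8, Trac and Trbc2 were lower in every KO library than in any WT library, at 0.872-fold and 0.798-fold, and Cd3d, Cd8b1 and Lck were higher, at 1.07-fold, 1.06-fold and 1.06-fold, with none past an adjusted p of 0.05 in edgeR. Cd4 stayed between 0.367 and 0.920 CPM in all 6 libraries. By Xist and Y-linked counts, KO replicates 4 and 5 and WT replicate 2 were male, and KO replicate 6 and WT replicates 1 and 3 were female. Across the table, 1 of 15186 genes passed an adjusted p of 0.05.

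Several of these genes carry sequence features that define how they work, and a few are shown for that reason. The 4 members whose enzyme uses selenocysteine, the selenium analogue of cysteine, read an in-frame TGA as that residue rather than as a stop. The codon, in capitals, is given with 12 bases on each side from the GENCODE M21 transcripts. It is codon 47 of Gpx1, codon 129 of the Gpx4 transcript used, codon 612 of Txnrd1 and codon 526 of Txnrd2, and in both reductases it is followed by a glycine codon and then a stop.
Gpx1: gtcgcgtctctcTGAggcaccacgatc
Gpx4: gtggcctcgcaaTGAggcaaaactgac
Txnrd1: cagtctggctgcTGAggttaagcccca
Txnrd2: gtgactggttgcTGAggctaagtcacc

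The ferritin messages each carry an iron-responsive element, a stem-loop near the 5′ end that iron regulatory proteins bind when iron is scarce, which blocks translation. The element is therefore a control on protein output that a count of transcripts does not read. In the 28 bases shown for each gene, 25 are identical, and the capitals mark the 6-base loop, CAGTGN, which begins at transcript base 99 in Fth1 and base 90 in Ftl1.
Fth1: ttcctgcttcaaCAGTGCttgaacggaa
Ftl1: gtcttgcttcaaCAGTGTttgaacggaa

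NRF2 binds the antioxidant response element, whose core is TGACNNNGC. This core was searched on both strands from 250 bases before to 50 after the start of each gene in RefSeq promoters (GRCm38.p6), where 30 of the 35 members had a match by symbol. It was present in 6 of the 30 (20%) and in 14.0% of all 27025 genes with such a window. The matches are shown with the core in capitals, on the strand of the gene, so that 5 of them read as the reverse complement.
Gclm (chr3:122245413-122245441, plus strand): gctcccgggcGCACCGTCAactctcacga
Nfe2l2 (chr2:75704885-75704913, minus strand): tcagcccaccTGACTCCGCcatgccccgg
Prdx1 (chr4:116685456-116685484, plus strand): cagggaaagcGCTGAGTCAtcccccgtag
Sod1 (chr16:90220696-90220724, plus strand): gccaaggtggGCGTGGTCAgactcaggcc
Srxn1 (chr2:152105542-152105570, plus strand): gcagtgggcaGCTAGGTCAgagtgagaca
Txnrd1 (chr10:82859104-82859132, plus strand): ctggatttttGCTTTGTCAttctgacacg
The Prdx1 match overlaps the letters of the AP-1 motif TGANTCA, and the Txnrd1 match lies before an alternative start. These are letter matches only, and binding was not measured.

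In the quasi-likelihood test of edgeR, 0 of the 35 genes passed an adjusted p of 0.05 between KO and WT, against 0.00659% of all tested genes. At an unadjusted p under 0.05 there were 3 members lower and 0 higher in KO, 8.57% of the 35 against 7.26% of all tested genes (3.44% lower and 3.82% higher in KO). The 3 were Gsto1, Gpx4 and Txn1, at 0.789-fold, 0.882-fold and 0.896-fold of WT. The count of lower members was 7 without WT replicate 1 and 6 without KO replicate 4, where 7.33% and 3.66% of all genes tested were lower at that threshold. The median log2 fold of the 35 was -0.06, against 0.01 over all tested genes, and 22 of the 35 estimates lay below 0 (62.9%, against 47.6% of all tested genes). KO and WT values did not overlap for 6 members, 1 higher and 5 lower in KO, which is 17.1% of the members against 12.8% of all tested genes (6.68% higher and 6.07% lower in KO).

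**Figure D1:**
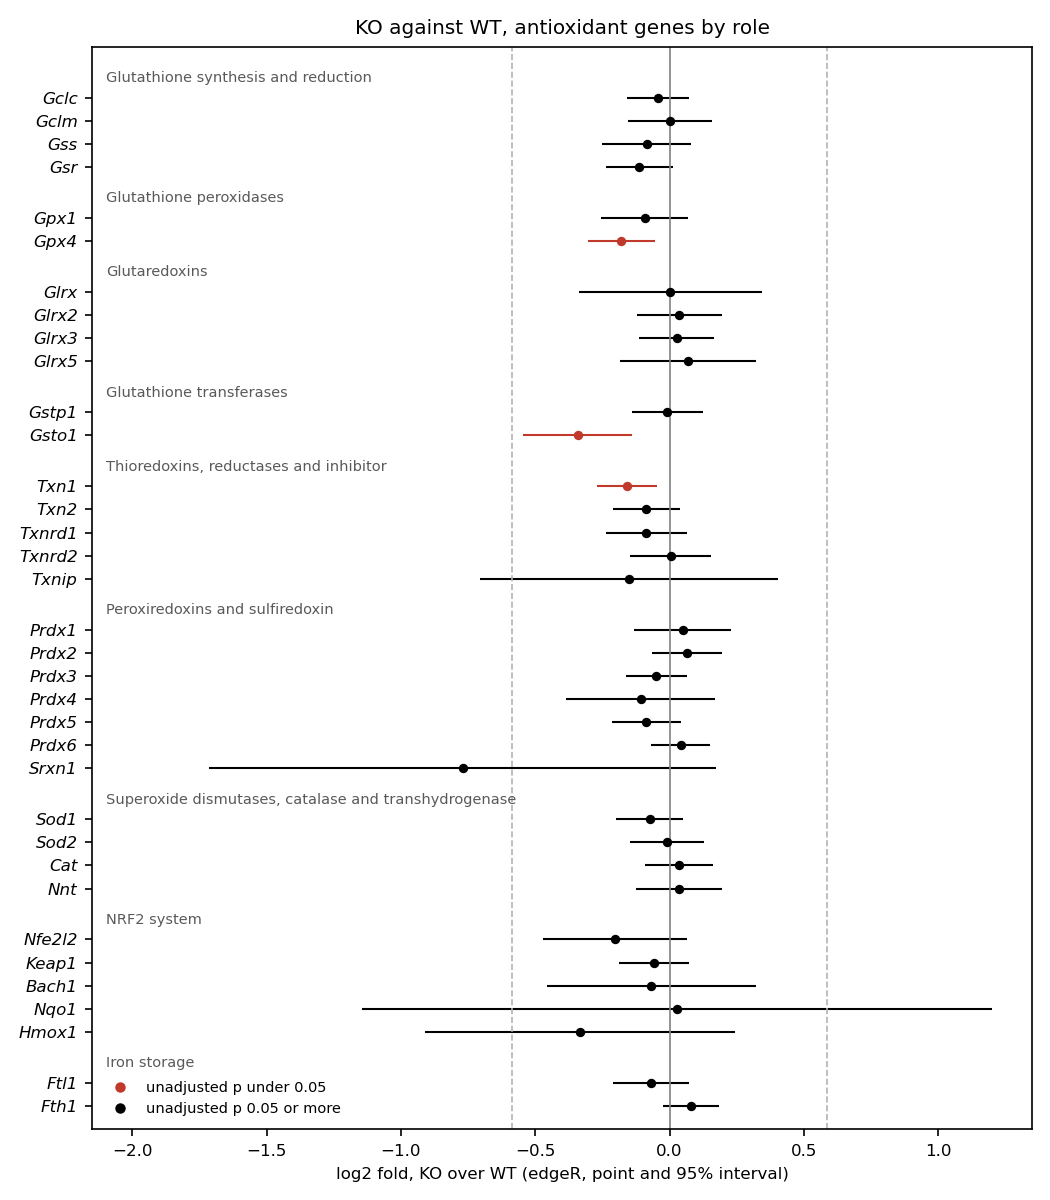
Estimated log2 fold of KO over WT for each of the 35 genes, with 95% intervals from edgeR's quasi-likelihood fit, grouped by role (n = 3 libraries per genotype). Most intervals are narrow and cross 0. Those of Srxn1, Nqo1, Hmox1 and Txnip are the widest, and those of Gsto1, Gpx4 and Txn1 lie below 0 before adjustment.

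The intervals limit how large a difference these libraries leave room for. For 31 of the 35 members (88.6%, against 64.4% of all tested genes) the 95% interval of the fold lay within 1.5-fold in both directions. The 4 exceptions were Txnip, Srxn1, Nqo1 and Hmox1. All of these are measurements of RNA in bulk cultures, in which fewer cells of a type and less RNA per cell cannot be told apart.

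Levels between genes were compared as CPM per kilobase of exon. Txn1, the cytosolic thioredoxin, was the most abundant at 207.7 in KO and 231.8 in WT, with the ferritin light chain Ftl1 next at 194.1 in KO and 203.5 in WT. The mitochondrial and cytosolic peroxiredoxins Prdx3 and Prdx1 followed, at 82.5 and 87.6 CPM per kilobase in KO and 85.4 and 84.7 in WT. At the low end stood Srxn1, at 1.07 in KO and 1.82 in WT, and Nqo1, at 0.355 in KO and 0.346 in WT. Dividing by the longest coding transcript in place of all annotated exons gave the same 10 genes as the most abundant 10. It put Ftl1 first and raised 18 of the 35 levels by over 1.5 times, up to 6.19 times for Sod1.

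**Figure D2:**
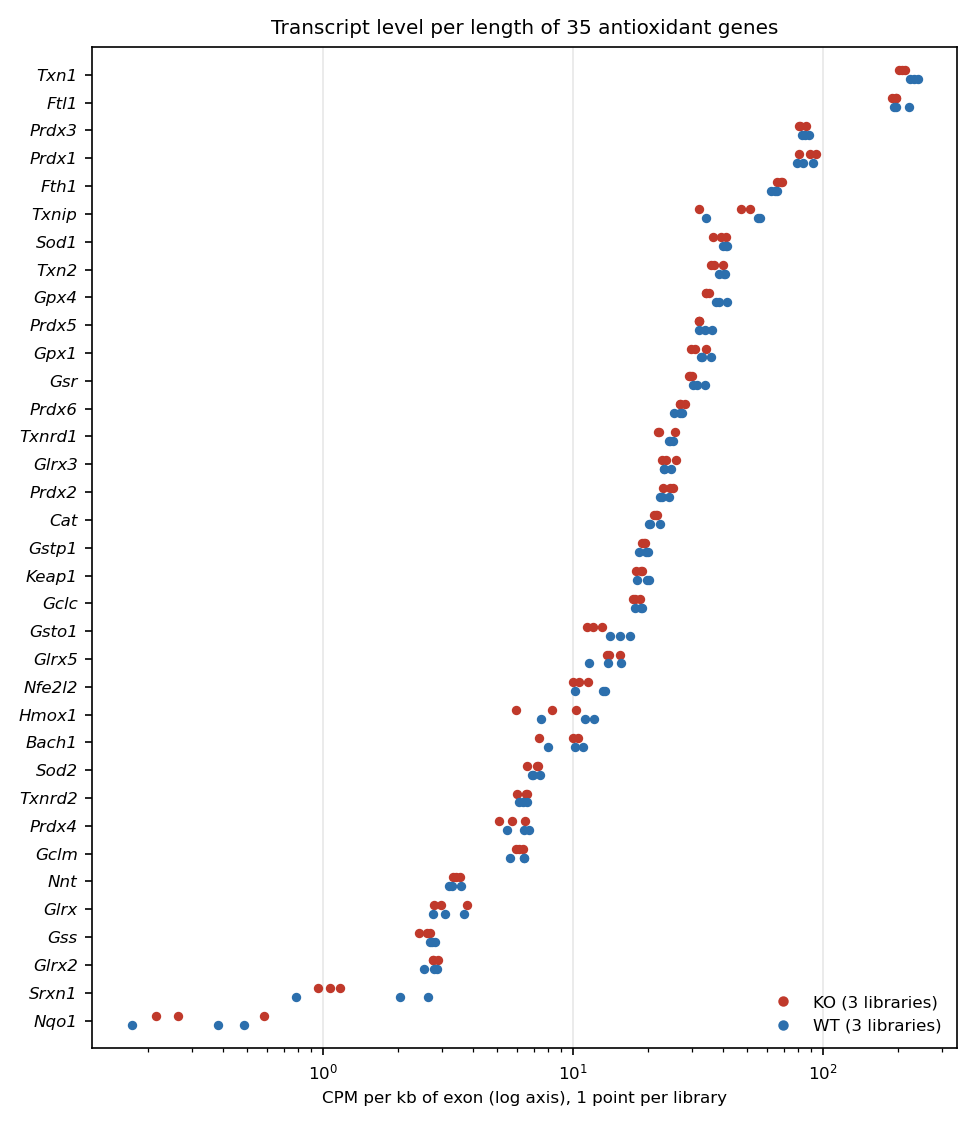
Level of each gene as CPM per kilobase of exon on a log axis, KO and WT, with 1 point per library and genes ordered by their WT mean. Levels run from about 0.35 for Nqo1 to over 200 for Txn1, and the 6 points of most genes lie close together beside the span between genes.

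Glutathione is made in a pair of steps. The first is catalysed by glutamate-cysteine ligase, with its catalytic subunit Gclc and its modifier subunit Gclm, and the second by glutathione synthetase, Gss. Gclc had 65.9, 70.1 and 66.9 CPM in KO and 66.8, 71.1 and 70.9 CPM in WT, with a fold between 0.896 and 1.05 (95% interval). Gclm averaged 38.5 ± 1.27 CPM in KO and 38.5 ± 2.75 CPM in WT (SD, n = 3 each), and its fold lay between 0.898 and 1.11. Gss had 14.4, 15.5 and 16 CPM in KO and 15.9, 16.1 and 16.7 CPM in WT, with a log2 fold of -0.08 (SE 0.07). Values of KO and WT overlapped for all 3. Gsr, glutathione reductase, which turns oxidised glutathione back to its reduced form with NADPH, had 82.7, 80.3 and 81.1 CPM in KO and 83.6, 87.0 and 93.3 CPM in WT. Every KO library was below every WT library for Gsr, by a margin that was small beside the spread among the WT libraries, and its log2 fold was -0.11 (SE 0.05, adjusted p = 0.70 by edgeR's quasi-likelihood test).

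Gpx4 reduces lipid peroxides inside membranes with glutathione and is the enzyme that guards cells against ferroptosis. It lies on chromosome 10, 80047166 to 80056439, plus strand (GRCm38). It had 58.8, 60.7 and 59.1 CPM in KO, against 64.5, 71.5 and 66.4 CPM in WT. The 3 KO libraries lay close together and below all 3 WT libraries, and the fold was 0.882 (95% interval 0.809 to 0.962, adjusted p = 0.60 by edgeR's quasi-likelihood test). The difference did not pass the adjusted threshold. Gpx1, the general cytosolic glutathione peroxidase, had 49.3, 44.6 and 43.0 CPM in KO and 51.6, 47.4 and 47.1 CPM in WT, with overlapping groups and a log2 fold of -0.09 (SE 0.07).

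Gsto1, a glutathione transferase of the omega class that also removes glutathione from protein thiols, had 24.5, 26.5 and 23.1 CPM in KO, against 28.5, 31.2 and 34.2 CPM in WT. The gene lies on chromosome 19, 47854970 to 47864790, plus strand. All KO values were below all WT values. It had the smallest p of the 35 members, with a fold of 0.789 (95% interval 0.686 to 0.907, adjusted p = 0.60 by edgeR's quasi-likelihood test), and it too failed the adjusted threshold. Gstp1, the pi-class transferase, averaged 29.8 ± 0.437 CPM in KO and 30.0 ± 1.26 CPM in WT (SD, n = 3 each). The rows of the related genes Gstp2 and Gstp3 held 12 and 8175 counts over the 6 libraries, beside 8084 for Gstp1. Whether reads were shared among these genes was not tested.

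The glutaredoxins use glutathione to undo mixed disulphides on proteins or, in Glrx3 and Glrx5, to handle iron-sulphur clusters. Glrx3 had 130.1, 114.6 and 118.9 CPM in KO and 123.9, 116.8 and 116.3 CPM in WT. Glrx5, the mitochondrial cluster protein, had 56.8, 50.4 and 51.6 CPM in KO and 57.6, 43.0 and 51.0 CPM in WT. Glrx had 16.4, 20.8 and 15.4 CPM in KO and 20.2, 17.0 and 15.3 CPM in WT, and Glrx2 22.3 to 25.4 CPM over the 6 libraries. The groups overlapped for all 4 genes, whose log2 folds lay between 0.00 and 0.07.

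Txn1 reduces peroxiredoxins, ribonucleotide reductase and other proteins in the cytosol. It lies on chromosome 4, 57943373 to 57956411, minus strand. It had 224.9, 217.9 and 212.2 CPM in KO, against 234.3, 244.3 and 252.4 CPM in WT. The groups did not overlap, and the fold was 0.896 (95% interval 0.829 to 0.968, adjusted p = 0.60 by edgeR's quasi-likelihood test). The difference did not pass the adjusted threshold. Txn2, its mitochondrial counterpart, had 167.9, 154.9 and 150.9 CPM in KO and 170.7, 170.1 and 161.9 CPM in WT, with overlapping groups and a log2 fold of -0.09. The reductase of the cytosol, Txnrd1, had 181.4, 156.3 and 156.9 CPM in KO and 172.8, 173.6 and 178.5 CPM in WT, with KO replicate 4 above every WT library and the other two KO libraries below. The mitochondrial reductase Txnrd2 stayed between 26.3 and 29.0 CPM in KO and 26.8 and 28.9 CPM in WT.

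Txnip binds reduced thioredoxin and blocks it, and it also limits glucose uptake. It had 100.3, 148.0 and 160.4 CPM in KO and 107.0, 171.5 and 175.4 CPM in WT. KO replicate 4 and WT replicate 1 were low and the other four libraries high, so that the spread within each genotype was larger than the difference between them. The fold was 0.90 (95% interval 0.613 to 1.32), which neither shows a difference nor leaves out one of 1.5-fold in the lower direction. Part of the gene's exon sequence is shared with Gm15441 on the opposite strand, and which strand the counts used was not given in the sources used here.

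Most peroxiredoxins, though not Prdx6, are reduced by thioredoxin. The family covers the cytosol (Prdx1, Prdx2, Prdx6), chiefly mitochondria (Prdx3, Prdx5) and the endoplasmic reticulum (Prdx4). Prdx1 had 285.7, 243.9 and 270.1 CPM in KO and 277.9, 240.3 and 254.6 CPM in WT, with replicate 5 lowest in KO and replicate 2 lowest in WT. Prdx3 ranged from 118.6 to 127.4 CPM in KO and from 122.4 to 130.4 CPM in WT, and Prdx6 from 129.4 to 134.8 CPM in KO and from 121.8 to 132.1 CPM in WT. Prdx2 had 70.1 to 76.6 CPM in KO and 68.1 to 74.1 CPM in WT, with exon bases shared with Junb and Rnaseh2a on the opposite strand. Prdx4 had 10.7 to 13.5 CPM in KO and 11.5 to 14.1 CPM in WT. For these 5 genes the groups overlapped, and their log2 folds lay between -0.11 and 0.06. Prdx5 had 68.6, 68.5 and 68.5 CPM in KO and 68.7, 77.4 and 72.2 CPM in WT, so that the groups did not overlap but nearly met. Its exons share bases with Trmt112.

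Srxn1, sulfiredoxin, repairs peroxiredoxins whose catalytic cysteine has been overoxidised, and is a well-known target of NRF2. It lies on chromosome 2, 152105516 to 152111376, plus strand, and the response-element match shown above falls just after its start. It had 2.70, 3.32 and 3.01 CPM in KO and 2.21, 5.74 and 7.45 CPM in WT. The KO libraries lay close together, while WT replicate 1 was the lowest of all 6 and WT replicates 2 and 3 were the highest. The summed level of 8 B and plasma cell markers was 29.7, 32.6 and 41.9 CPM in KO and 25.3, 75.9 and 49.6 CPM in WT, with its lowest value in the same library and its highest pair in the same pair as Srxn1. The marker sums of CD4 T cells, dendritic cells and platelets were also highest in WT replicates 2 and 3, with their lowest value in a KO library. Few genes carried these sums. Batf3 gave 20.97 and 21.28 CPM of the dendritic cell sum in WT replicates 2 and 3, while Itgax and Clec9a were highest in KO replicates 4 and 6. Zbtb7b and Foxp3 made up most of the CD4 T cell sum, while Cd4 itself was highest in KO replicate 4 and lowest in WT replicate 3. The platelet sum was nearly all Itga2b. The part of any of these cells in the Srxn1 values was not tested. The Srxn1 fold of 0.586 was the farthest from 1 among the 35 genes, with a 95% interval of 0.305 to 1.13 (adjusted p = 0.70 by edgeR's quasi-likelihood test). Without WT replicate 1 its log2 fold was -1.13 with an adjusted p of 0.043 by the same test, and without WT replicate 3 it was -0.40 with an adjusted p of 0.995. Srxn1 was the 1 member called in any of the fits that left out a library. Leaving out WT replicate 1 also raised the calls over the whole table to 119 (0.764% of 15584 genes tested, with 0.43% called lower in KO).

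**Figure D3:**
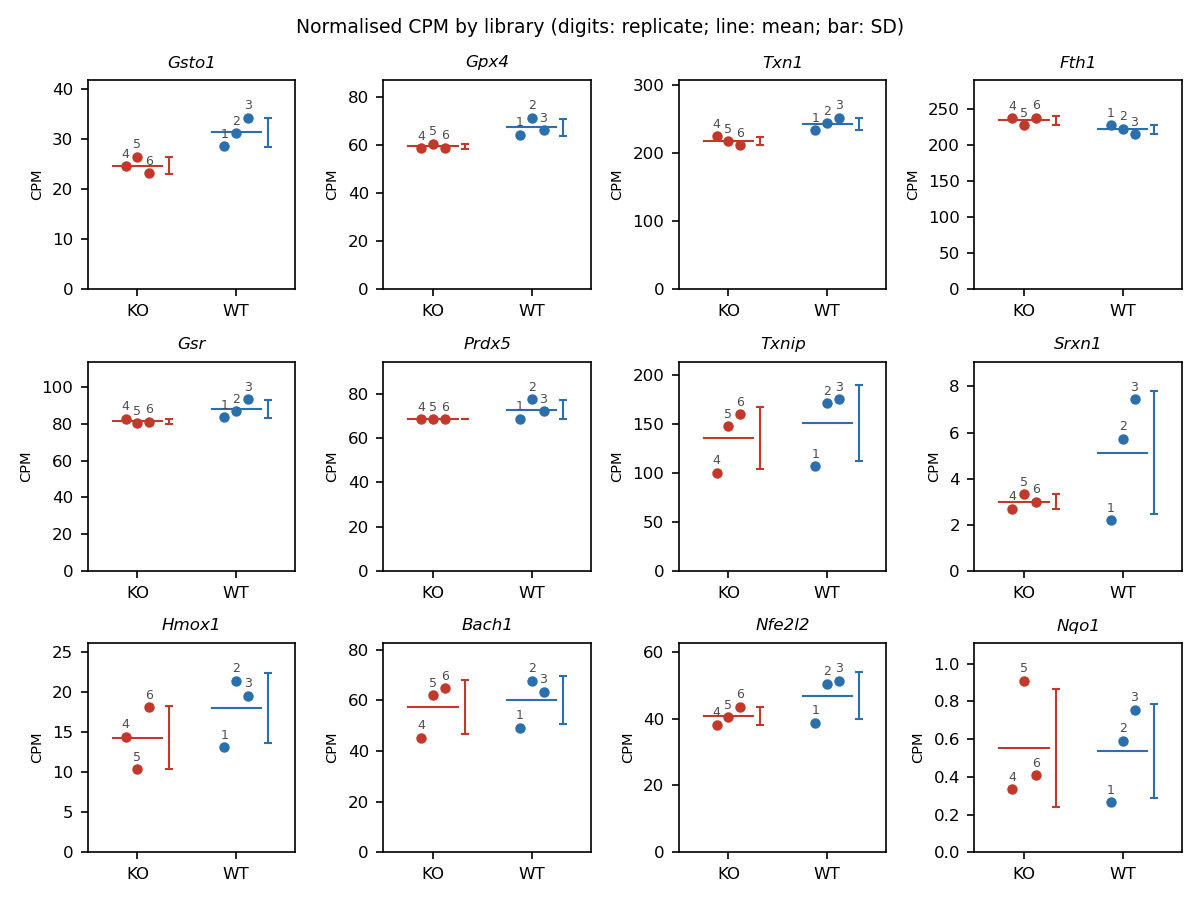
CPM of 12 of the 35 genes in each library on linear axes from 0, KO left of WT, with the replicate number at each point, the mean as a line and the SD as a bar (n = 3 libraries per genotype). Gsto1, Gpx4, Txn1, Gsr and Prdx5 are lower in every KO library than in any WT library and Fth1 is higher, while WT replicate 1 lies apart from WT replicates 2 and 3 for Txnip, Srxn1, Hmox1, Bach1 and Nfe2l2.

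Superoxide is turned into hydrogen peroxide by Sod1 in the cytosol and Sod2 in mitochondria, and catalase, Cat, splits the peroxide in peroxisomes. Sod1 had 162.9, 155.5 and 145.0 CPM in KO and 165.0, 158.5 and 163.9 CPM in WT, Sod2 had 72.7, 65.8 and 72.2 CPM in KO and 74.3, 69.4 and 68.6 CPM in WT, and Cat had 56.3, 56.8 and 55.4 CPM in KO and 58.3, 53.2 and 52.7 CPM in WT. Nnt, the transhydrogenase that makes NADPH in mitochondria, had 25, 23.4 and 24.2 CPM in KO and 25.2, 23.2 and 22.5 CPM in WT. The groups overlapped for all 4, with log2 folds between -0.07 and 0.04. Some C57BL/6 substrains carry an internal deletion in Nnt that a gene-level count does not read.

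Nfe2l2, which encodes NRF2, had 38.1, 40.4 and 43.6 CPM in KO and 38.7, 50.4 and 51.3 CPM in WT. WT replicate 1 lay within the KO range and the other two WT libraries above it, and the log2 fold was -0.20 (SE 0.11, adjusted p = 0.71 by edgeR's quasi-likelihood test). Keap1, the adaptor that targets NRF2 for degradation, had 84.5, 88.6 and 88.5 CPM in KO and 84.7, 94.8 and 92.9 CPM in WT. Bach1, a haem-sensing repressor that competes with NRF2 for its sites, had 45.2, 62.1 and 64.9 CPM in KO and 49.3, 67.8 and 63.4 CPM in WT, with the low value of each genotype in KO replicate 4 and WT replicate 1. Both genes overlapped between the groups.

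The NRF2 targets Hmox1 and Nqo1 varied widely between libraries of 1 genotype. Hmox1, the haem oxygenase that releases iron from haem, had 14.4, 10.4 and 18.1 CPM in KO and 13.1, 21.4 and 19.6 CPM in WT. Its groups overlapped and its fold lay between 0.532 and 1.18 (95% interval). Hmox1 is also abundant in macrophages, and the summed level of 12 macrophage and monocyte markers was 34.8, 11.2 and 39.8 CPM in KO and 15.3, 16.6 and 6.84 CPM in WT, with 11 of the 12 detected in all libraries. The KO libraries stood in the same order for Hmox1 and for this sum, but the 6 libraries together did not. The sum was lowest in WT replicate 3, where Hmox1 had 19.6 CPM, and Hmox1 was highest in WT replicate 2. The part of those cells in the Hmox1 values was not tested. Nqo1, a quinone reductase, was scarce, at 0.334, 0.909 and 0.409 CPM in KO and 0.267, 0.591 and 0.755 CPM in WT, from 12 to 40 counts a library, with a fold between 0.452 and 2.30.

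Ferritin stores iron in a shell of heavy chains, which oxidise it, and light chains. Fth1 had 237.6, 227.4 and 237.8 CPM in KO, against 227.2, 222.9 and 215.0 CPM in WT, and was the 1 member with every KO library above every WT library. The groups nearly met at KO replicate 5 and WT replicate 1. Its log2 fold was 0.08 (SE 0.04, adjusted p = 0.71 by edgeR's quasi-likelihood test). Ftl1 had 262.6, 254.1 and 263.4 CPM in KO and 262.8, 296.3 and 259.1 CPM in WT, with overlapping groups and WT replicate 2 above the rest. A pseudogene, Ftl1-ps1, held 252 counts over the 6 libraries beside 72030 for Ftl1.

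The 35 genes were steady within genotypes. Their median coefficient of variation between libraries of one genotype was 4.67%, against 8.87% over all tested genes, though their median level was also higher, at 63.5 CPM against 17.4 CPM. It was below 10% for 26 of them and above 20% for Nqo1 (51.4%), Srxn1 (31.2%), Hmox1 (25.7%) and Txnip (24.4%). The highest of the 6 values fell in a KO library for 10 members and in a WT library for 25, and the lowest in a KO library for 22 and in a WT library for 13. Together the 35 genes took 3004, 2918 and 2961 CPM in KO and 3020, 3083 and 3081 CPM in WT. Neither these counts of highest and lowest values nor this sum was set beside the same over all tested genes. They are therefore not read as a result about the members.

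A wider set of 162 redox genes outside the 35 held 161 rows of the table, of which 140 were tested. In the same edgeR fit 0 of them passed an adjusted p of 0.05, and 20 had an unadjusted p under 0.05, 2 higher and 18 lower in KO, 14.3% of the 140 against 7.26% of all tested genes. Their median log2 fold was -0.01, and 77 of the 140 estimates (55%) lay below 0, against 47.6% of all tested genes. Of the lower genes, 6 were among the 23 tested glutathione enzymes (Chac1, Gstt1, Gstt2, Mgst3, Ggt1 and Ggt7). Another 4 were among the 10 genes listed under cystine uptake and transsulfuration (Slc3a2, Slc1a4, Slc1a5 and Cth). Slc1a4 and Slc1a5 carry several neutral amino acids and Slc3a2 is shared with other exchangers, so these 4 do not measure cystine uptake alone. The NADPH-producing enzymes gave 3 of 15 (Aldh1l2, Mthfd2 and Mthfd1l). NRF2 partners and regulators gave another 3 of 20 (Mafg, Mafk and Nfe2l1), selenoprotein genes 1 of 18 (Sepsecs) and iron genes 1 of 15 (Slc39a14). The 2 higher genes were Txndc16, among 26 of the thioredoxin fold, and the exporter Abcc5. Of the 13 sources of superoxide and peroxide 0 were either. Those of these genes beyond the first 2 of a list were named after their values were seen.

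Chac1, which degrades glutathione inside the cell, had 35.8, 34.3 and 31.9 CPM in KO, against 40.7, 54.6 and 49.96 CPM in WT, a log2 fold of -0.51 (adjusted p = 0.53 by edgeR's quasi-likelihood test). Gstt1, a theta-class transferase, had 6.42, 6.5 and 7.94 CPM in KO, against 10.6, 16.3 and 10.2 CPM in WT, a log2 fold of -0.83 (adjusted p = 0.60 by the same edgeR test). For both genes every KO library lay below every WT library. DESeq2 called both lower in KO, with adjusted p-values of 0.0092 for Chac1 and 0.021 for Gstt1, where it called 0.586% of all tested genes and none of the 35 members. Slc3a2, the heavy chain shared by the cystine and large neutral amino acid exchangers, had 373.7, 362.2 and 355.9 CPM in KO, against 392.1, 510.6 and 499.2 CPM in WT. Slc1a4, a transporter of serine, alanine and cysteine, had 64.0, 62.4 and 63.4 CPM in KO, against 68.4, 92.2 and 86.9 CPM in WT. For Chac1, Slc3a2 and Slc1a4, WT replicate 1 was the WT library nearest to KO.

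Among the NADPH-producing enzymes, Aldh1l2, of mitochondrial folate metabolism, had 25.1, 29.5 and 22.6 CPM in KO and 28.4, 56.3 and 44.7 CPM in WT, and Mthfd2, of the same pathway, had 322.4, 286.6 and 311.5 CPM in KO and 323.5, 393.0 and 375.8 CPM in WT. Mafg, a small Maf protein that pairs with NRF2 on DNA, had 88.4, 87.9 and 85.6 CPM in KO and 91.3, 110.4 and 109.6 CPM in WT. Nfe2l1, the relative of NRF2 that controls proteasome genes, had 238.3, 230.5 and 220.4 CPM in KO and 241.5, 312.8 and 289.1 CPM in WT. WT replicate 1 was again the WT library nearest to KO for all 4. Without it, edgeR called 6 of the wider set lower in KO, namely Slc3a2, Slc1a4, Chac1, Aldh1l2, Mafg and Nfe2l1, with adjusted p-values between 0.024 and 0.047, where 0.43% of the genes tested were called lower.

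Of the genes on the higher side, Txndc16, a thioredoxin-fold protein of the endoplasmic reticulum, had 24.0, 24.0 and 23.6 CPM in KO, against 22.1, 19.4 and 18 CPM in WT, a log2 fold of 0.27 (adjusted p = 0.62 by edgeR's quasi-likelihood test). Among the iron genes, the zinc and iron importer Slc39a14 had 60.2, 57.8 and 59.9 CPM in KO, against 64.6, 65.9 and 65.1 CPM in WT. Slc40a1, ferroportin, the exporter of iron, had 4.91, 0.727 and 5.01 CPM in KO and 1.29, 1.49 and 0.0647 CPM in WT. Its 6 values stand in the same order over the libraries as the macrophage and monocyte marker sums given above, from KO replicate 6 at the top to WT replicate 3 at the bottom, and the part of those cells in its values was not tested. The other named genes were Sepsecs and Selenos, of the selenoprotein system, with log2 folds of -0.23 and -0.09, the oxidase Xdh and the copper chaperone Ccs, at 0.44 and 0.12, and the thioredoxin-fold protein Tmx1, at 0.11.

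**Figure D4:**
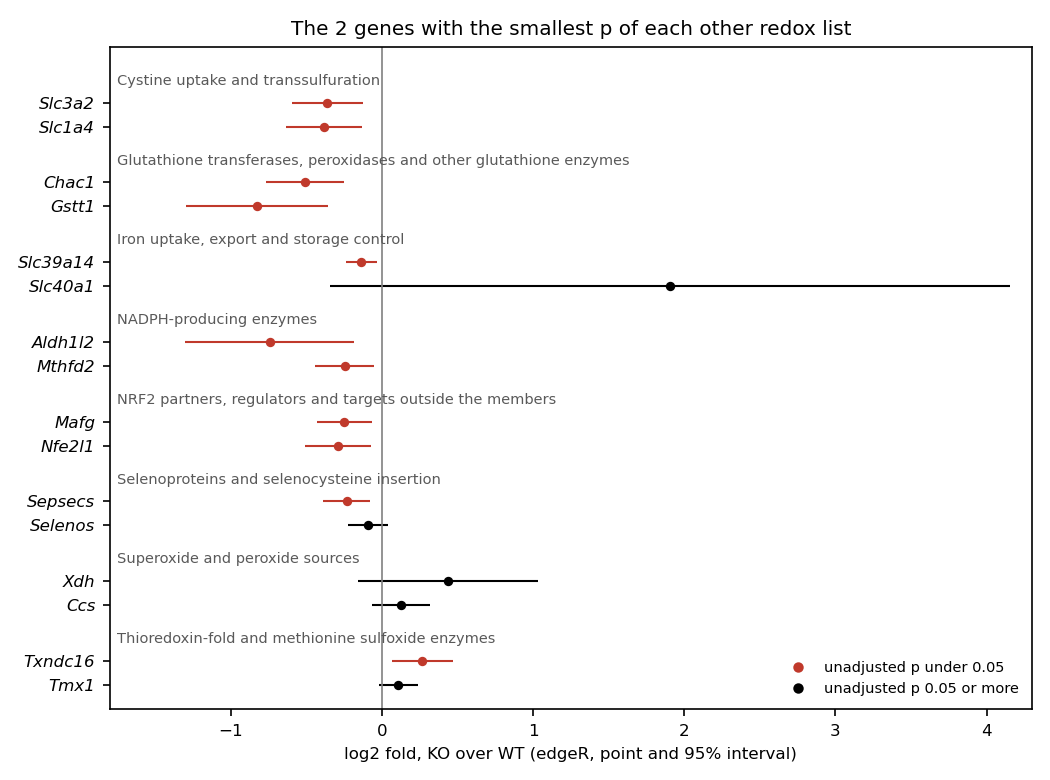
Estimated log2 fold of KO over WT with 95% intervals from edgeR's quasi-likelihood fit for the 2 genes with the smallest p in each list of redox genes outside the 35 (n = 3 libraries per genotype). The genes were picked by p and do not stand for their lists. Slc40a1 stands far to the right at 1.90 with a wide interval, and none passed an adjusted p of 0.05.

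Markers of other cells were low beside the T cell genes. Summed levels were 29.7 to 41.9 CPM in KO and 25.3 to 75.9 CPM in WT for B and plasma cells, and 11.2 to 16.9 CPM in KO and 13.4 to 27.3 CPM in WT for CD4 T cells. Dendritic cell markers summed to 19.7 to 35.5 CPM in KO and 26.0 to 39.5 CPM in WT, with Cd209a at 0 in every library. Neutrophil markers stayed at 0.193 to 0.545 CPM in KO and 0.134 to 0.3885 CPM in WT, with Retnlg and Elane at 0. Platelet markers stayed at 2.34 to 3.30 CPM in KO and 2.43 to 3.89 CPM in WT. Nearly all of that platelet sum was Itga2b, with Gp9 and Gp1bb at 0. NK cell markers summed to 177.6 to 284.3 CPM in KO and 209.9 to 228.5 CPM in WT, most of it Eomes, which CD8 T cells also express. The part of any of these cells in the member values was not tested.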

How the data were processed

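RNA-seq read counts per gene for 6 libraries were used as the authors deposited them, in 1 table of whole-number counts with no row that names no gene and 0 unused sample columns. Per the submitters' processing notes, the build was mm10, and HTSeq 0.9.1 and DESeq2 appear there with no step assigned to either. Aligner, annotation and strand use were not given in the sources used here, so values of genes that overlap on opposite strands are uncertain. From the counts, genes were filtered with filterByExpr, scaled by TMM, and fitted with edgeR 4.0.16 (robust quasi-likelihood fit, genotype as the term, R 4.3.3) over all genes that passed, with Benjamini-Hochberg adjustment. The procedure was tested on simulated data. CPM values use the TMM library sizes, and 3 counts correspond to 0.0627 to 0.0722 CPM, a limit that covers counting error only. RLE factors, no low-count filter, DESeq2 1.42.0, limma-voom (limma 3.58.1), a sex term read from Xist and Y-linked genes, and leaving out each library were alternatives. Coordinates and lengths come from GENCODE M21 (GRCm38), promoters from RefSeq (GRCm38.p6). All 35 members are named, and of each wider list the 2 tested genes with the smallest p. Any other gene was named after its values were seen. The members and lists were chosen with earlier results of these data known.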

Additional observations from a re-analysis of the deposited data

How the results depend on the processing

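The number of genes called over the whole table was 1 in edgeR with TMM, 10 with no low-count filter, 89 with DESeq2 and between 1 and 119 when single libraries were left out. None of the 35 members was called under RLE factors, no low-count filter, DESeq2, limma-voom or a sex term, and between 0 and 1 when single libraries were left out, the 1 being Srxn1 without WT replicate 1. Members lower in KO at an unadjusted p under 0.05 numbered 3 in edgeR (beside 3.44% of all tested genes), 6 without KO replicate 4 (beside 3.66%) and 7 without WT replicate 1 (beside 7.33%), with a range of 2 to 7 when single libraries were left out. The median log2 fold of the members was -0.058 in edgeR and lay between -0.070 and -0.036 when single libraries were left out. It remained negative, but each of these shifts was larger than the spread of the members' median level between libraries of a genotype. The wider redox genes called numbered 2 with DESeq2 and between 0 and 6 when single libraries were left out. The log2 folds of Gsto1, Gpx4 and Txn1 were negative under every alternative run. Folds near 0 changed sign. Gclm was at -0.0034 with RLE and -0.0033 with DESeq2, Glrx at -0.0018 with RLE, -0.0017 with DESeq2 and -0.038 with a sex term, and Txnrd2 at -0.00042 with RLE and -0.020 with a sex term. With a sex term Gstp1 was at 0.0035, Sod2 at 0.0063 and Nqo1 at -0.12. Leaving out single libraries gave log2 folds between -0.057 and 0.032 for Gclm, -0.14 and 0.12 for Glrx, -0.012 and 0.074 for Glrx2, -0.027 and 0.065 for Glrx3, -0.036 and 0.17 for Glrx5, -0.042 and 0.016 for Gstp1, -0.024 and 0.047 for Txnrd2, -0.35 and 0.028 for Txnip, -0.0034 and 0.11 for Prdx1, -0.036 and 0.034 for Sod2, -0.19 and 0.078 for Bach1, and -0.54 and 0.35 for Nqo1. The cause was not tested. No paired analysis was possible because the KO libraries are numbered 4 to 6 and the WT libraries 1 to 3, with no shared number. Depth limits Nqo1, with 12 to 40 counts a library.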
